A study of Mus musculus with 31 samples.

Results

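Ribosome-bound RNA of mouse sciatic nerve was compared between mice with and without the Cre recombinase that labels sensory neurons. The comparison used 7 of the 31 libraries of the series. They were the 4 peripheral axon libraries from Nav1.8-Cre;L10a-eGFP-fl/fl mice (Cre 1, 2, 3 and 4 below) and the 3 sciatic nerve libraries from L10a-eGFP-fl/fl mice, which lack Cre (controls 1, 2 and 4), selected by the genotype and tissue in the labels. All 7 belonged to batch 2 and carried the floxed L10a-eGFP allele, so that Cre was the stated difference. No treatment was given in the labels, and the age and sex of the mice, and whether nerves of several mice were pooled, were not stated. Each library is a separate biological replicate by its label, and the p-values below measure the spread between these 7 libraries.

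In translating ribosome affinity purification (TRAP), a ribosomal protein fused to a fluorescent tag is expressed in a chosen cell type and its ribosomes are pulled out of a whole tissue lysate with the RNA they hold. Here the tag was on ribosomal protein L10a, and the Cre was driven by Nav1.8, a voltage-gated sodium channel made mainly by nociceptors, the sensory neurons that respond to painful stimuli. In the sciatic nerve the cell bodies of these neurons are absent and only their axons are present, beside axons of other neurons, myelinating and non-myelinating Schwann cells, fibroblasts, vessels and immune cells. A pulldown from a mouse without Cre recovers the RNA that sticks to beads and antibody, so that a control library holds the background of the nerve and of the tissue dissected with it. Muscle fibres border the sciatic nerve in the leg, and collagens and laminins are made by its fibroblasts and Schwann cells. RNA yields of the axon samples were estimated by the submitters at below 100 pg.

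The libraries held between 4.10 M and 15.06 M counts, and between 9606 and 16509 genes had at least 10 counts. The number of such genes was 13992 ± 1930 (SD, n = 4) with Cre and 12257 ± 2305 (n = 3) in the controls, a difference within the spread of the replicates (two-sided exact permutation test, p = 0.457, where 0.0571 is the smallest p that this design allows). Of the 7 libraries, 3 stood apart in ways that touch the results. Control 1 held as much neuronal RNA as the Cre libraries, control 2 held far more muscle RNA than any other library, and control 4 had the fewest genes (9606) and the lowest mean Spearman correlation with the others (0.641, against 0.748 to 0.826 for the other 6). Many list medians below are therefore also given without single libraries. Levels are counts scaled by the effective library size to the usual CPM unit (normalised CPM), and M in a total stands for mega. At 10 CPM the counting error alone gives a 95% Wilson interval of 7.37 to 13.6 at the depth of Cre 3 and of 8.53 to 11.7 at that of Cre 2.

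Across all genes no difference between the groups passed the test. Of 13970 genes tested with edgeR, 0 had an adjusted p under 0.05 (0%), and the smallest adjusted p was 0.9999. The spread between replicates was wide, with a biological coefficient of variation of 0.98. In simulated counts with a similar value (0.992), the same test recovered 0 of 100 genes changed by 3 on the log2 scale. The 0 calls therefore do not show that the groups are alike. The fitted log2 fold change (Cre over control) was above 0 in 53.1% of genes, with a median of 0.07. An unadjusted edgeR p under 0.05 was reached by 292 genes that were higher with Cre (2.09%) and 222 that were lower (1.59%). All 4 Cre libraries lay above all 3 controls in 526 genes (3.77%) and below them in 362 (2.59%). DESeq2, a second count test, called 27 of the 13755 genes to which it gave an adjusted p (0.196%), 21 higher and 6 lower. Every member of the gene groups below is therefore described by its values, by its side of 0 and by whether the groups overlap, and the shares in this paragraph are the background for those counts.

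Neuronal RNA was present in both groups. Scn10a (ENSMUSG00000034533, chromosome 9, 119608456 to 119719322, GRCm38), which encodes Nav1.8 itself, was at 39.9, 324, 134 and 151 normalised CPM in Cre 1 to 4. In controls 1, 2 and 4 it was at 120.5, 42.1 and 0. Control 1 thus lay among the Cre libraries, control 2 at the level of Cre 1, and control 4 held no count, which allows up to 0.519 normalised CPM. The log2 fold change was 1.59 (SE 1.29), which was not past the test. Rpl10a (ENSMUSG00000037805, chromosome 17, 28328471 to 28331033), the gene of the tagged protein, was at 158.8, 243, 316 and 151 in the Cre libraries and at 136.6, 133 and 139 in the controls. The groups did not overlap, with a log2 fold change of 0.67 (SE 0.38). The counts do not separate the tagged from the endogenous transcript, and a gene on the other strand covers 2.10% of the exons of Rpl10a. Here and below, fewer cells of a type and less RNA per cell cannot be told apart.

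**Figure D1:**
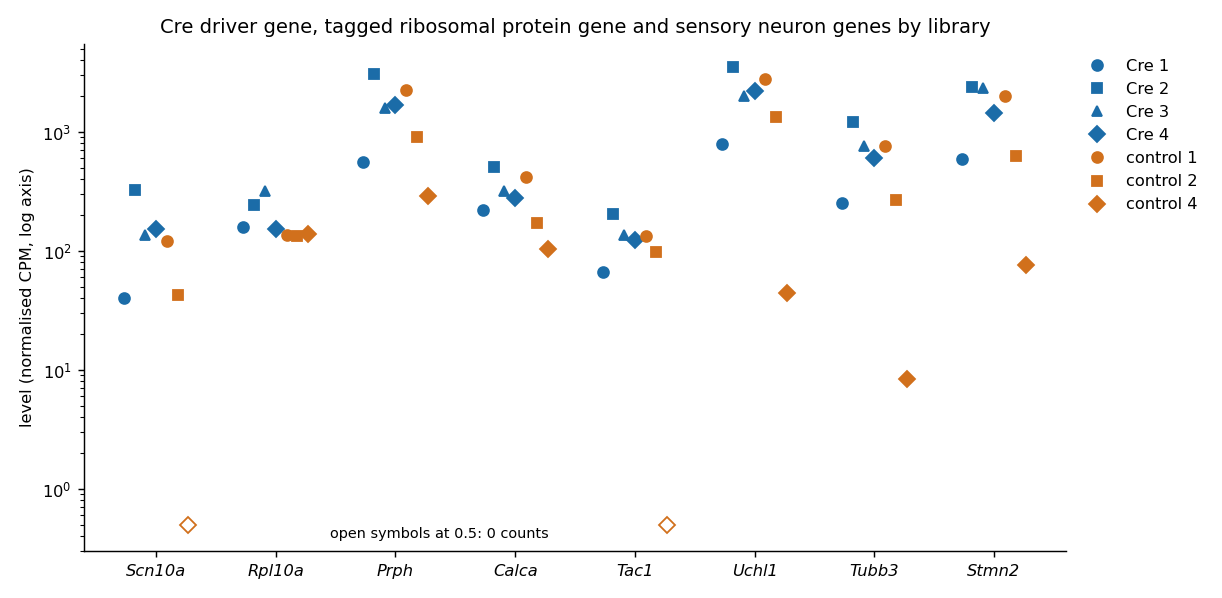
Level (normalised CPM, log axis) of the Cre driver gene, the gene of the tagged ribosomal protein and 6 neuronal genes in each library, with Cre libraries in blue and controls in orange and open symbols for 0 counts. Control 1 sits among the Cre libraries for the neuronal genes, and control 4 is the lowest library in all of them.

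Most nociceptor markers had a fitted value above 0, by an amount that depended on controls 1 and 4. Of the 25 markers 22 passed the low-count filter, 19 of those had a log2 fold change above 0, and the median was 0.82, against 0.07 over all genes. In 0 of the 22 did the groups fail to overlap, and 0 had an unadjusted edgeR p under 0.05. The summed level of the 25 markers was 1360, 6121, 3713 and 3390 normalised CPM in Cre 1 to 4 and 4410, 1713 and 603 in controls 1, 2 and 4. Control 1 was above the mean of the Cre libraries in 14 of the 22 genes. Without control 1 the list median was 2.86, and without control 4 it was 0.37. In control 4, 17 of the 25 markers had 0 counts, and in control 2 and Cre 1 8 each.

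Prph, which encodes the intermediate filament peripherin of small-diameter sensory axons, was the most abundant nociceptor marker per kilobase of exon, at 862 normalised CPM per kb on average with Cre and 571 in controls. Its levels were 559, 3074, 1596 and 1664 in the Cre libraries and 2226, 908 and 290 in the controls (log2 fold change 0.59, SE 0.73). Calca, the gene of the peptide CGRP, was at 218, 509, 318 and 279 normalised CPM with Cre and at 418, 172 and 103 without (0.52, SE 0.52). Both genes had control 1 above 3 of the 4 Cre libraries.

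A neuropeptide, a receptor and a transcription factor gene of nociceptors had a similar order of libraries. Tac1, which encodes substance P, was at 65.9, 204, 137 and 123 with Cre, and at 134, 96.7 and 0 in the controls (log2 fold change 0.79, SE 1.20). Mrgprd, a receptor of non-peptidergic nociceptors, was at 5.07, 97.7, 27.6 and 35.3 with Cre, and at 38.1, 7.84 and 0 without (1.44, SE 1.46). The transcription factor gene Prdm12, needed for nociceptors to form, was at 57.4, 186, 121 and 97.5 with Cre, and at 146, 30.01 and 1.90 without (0.97, SE 0.99), with 8.09% of its exons opposite another gene.

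Of the 22 nociceptor markers tested 3 had a log2 fold change below 0: the GDNF family receptor genes Gfra2 and Gfra3 and the ATP-gated channel gene P2rx3. Gfra3 was at 24.2, 52.6, 64.0 and 38.4 normalised CPM with Cre and at 145 in control 1, 1.53 in control 2 and 0 in control 4. P2rx3 was at 5.07, 16.9, 9.87 and 11.8 with Cre and at 40.2 in control 1, with 0 counts in the other controls. For both genes all 4 Cre libraries lay above controls 2 and 4 and below control 1, and the fitted value of -0.13 for Gfra3 (SE 1.49) and of -0.29 for P2rx3 (SE 1.89) turned positive without control 1.

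The 18 general neuronal markers repeated this pattern at higher counts. All 18 had a log2 fold change above 0, with a median of 0.89, and in 0 of them did the groups fail to overlap. Their summed level was 5354, 19398, 13780 and 10834 normalised CPM in Cre 1 to 4 and 14806, 5922 and 1434 in the controls. The median was 1.92 without control 1, 0.43 without control 4 and 0.41 without Cre 2. Tubb3, the neuronal beta-tubulin, was at 251, 1210, 753 and 604 with Cre and at 755, 269 and 8.31 without (log2 fold change 1.03, SE 1.02).

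Growth-associated and microtubule-binding genes of axons were among the most abundant neuronal RNAs. Stmn2, a stathmin that binds tubulin dimers, was at 595, 2392, 2322 and 1422 normalised CPM with Cre and at 1979, 628 and 76.5 in the controls (log2 fold change 0.91, SE 0.88). Stmn3, a related stathmin, was at 644, 2492, 1890 and 1957 with Cre and at 1813, 798 and 31.8 without (0.99, SE 0.96). Gap43, a protein of growing axons, was at 325, 1430, 978 and 701 with Cre and at 1158, 423 and 89.1 without (0.62, SE 0.76). Uchl1, a deubiquitinase abundant in neurons, was at 794, 3505, 1983 and 2204 with Cre and at 2749, 1340 and 44.0 without (0.62, SE 0.98), but another gene lies opposite 18.1% of its exons and its count is less certain. In each of the 4 genes Cre 1 was below controls 1 and 2, and control 4 was the lowest library.

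Wider neuronal groups had medians between those of the neuronal markers and of all genes. They are not independent of the neuronal markers. The cytoskeleton list shares Tubb3, Nefl, Nefm, Nefh, Ina, Map1b, Stmn2, Stmn3 and Prph with the marker lists. The synaptic list shares Snap25, Syt1 and Syp, and that of RNAs reported in axons shares Gap43, Nefl and Sncg. Synaptic vesicle and SNARE genes had a median of 0.68 on the log2 scale, and 17 of 20 were above 0, but the median was 1.95 without control 1, 0.19 without control 4 and 0.19 without Cre 2. For the 25 genes of the axonal cytoskeleton the median was 0.59 with 21 above 0 (1.17 without control 1, 0.29 without control 4, 0.31 without Cre 2). For the 22 kinesin, dynein and dynactin genes of axonal transport it was 0.50 with 19 above 0 (0.77 without control 1, 0.30 without control 4, 0.23 without Cre 2). In 0 members of these 3 lists did the groups fail to overlap. The 10 tested markers of large-diameter sensory neurons, which mostly lack Nav1.8, had a median of -0.16, and 4 were above 0. That median changed sign with the library left out, between -0.37 and 0.14. The 21 tested RNAs that other studies have reported in axons, such as those of beta-actin and importin beta, had a median of 0.20 (0.028 without control 4).

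**Figure D2:**
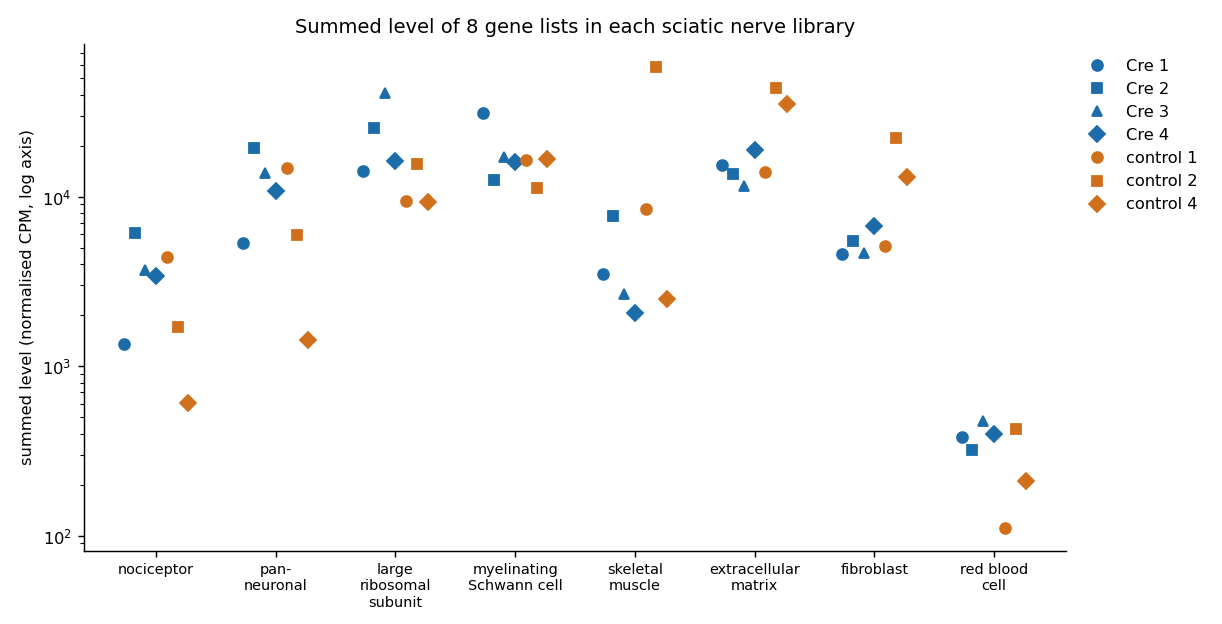
Summed level (normalised CPM, log axis) of 8 gene lists in each library, with Cre libraries in blue and controls in orange. In both neuronal lists the ratio of highest to lowest library is larger among the 3 controls than among the 4 Cre libraries, control 2 is the highest library for muscle, and Cre 3 for the large ribosomal subunit.

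Genes of ribosomal proteins, the structural parts of the ribosome itself, were higher with Cre as a group. Of 46 tested genes of the large subunit 45 had a log2 fold change above 0, with a median of 1.14, and of 33 genes of the small subunit 33 did, with a median of 1.27. The groups did not overlap in 8 of the 46 and 9 of the 33, all higher with Cre, against 3.77% of all genes. An unadjusted edgeR p under 0.05 was reached by 19 and 17 of them, all higher, against 2.09%. The summed level of the large subunit genes was 14260, 25488, 40921 and 16150 normalised CPM in Cre 1 to 4 and 9410, 15583 and 9327 in controls 1, 2 and 4, so that Cre 1 lay below control 2. Those of the small subunit were 11608, 21584, 35802 and 13584 with Cre and 6901, 12891 and 6670 without. Cre 3 was the highest library in 41 of the 46 and 31 of the 33 genes. Without Cre 3 the medians were 0.64 and 0.84.

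The start sites of some of these genes are shown because the group moved together and because many mRNAs of ribosomal proteins begin with a stretch of pyrimidines that couples their translation to growth signals. Each line runs from 20 bases before to 20 bases after the RefSeq start (GRCm38.p6), 5′ to 3′ on the strand of the gene, and capitals mark CTTTC or CTTCC.
Rps15a: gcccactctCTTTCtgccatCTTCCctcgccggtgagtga
Fau: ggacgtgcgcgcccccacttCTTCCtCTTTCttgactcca
Rps27: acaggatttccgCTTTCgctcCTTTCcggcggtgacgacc
Rps23: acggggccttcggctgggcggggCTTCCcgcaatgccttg
Rps19: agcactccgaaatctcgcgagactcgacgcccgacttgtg
Rpl10a: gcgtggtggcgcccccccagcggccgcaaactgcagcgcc
The windows are chr7:118116128-118116167 (minus strand) for Rps15a, chr19:6057927-6057966 (plus) for Fau, chr3:90213629-90213668 (minus) for Rps27, chr13:90923102-90923141 (plus) for Rps23, chr7:24884572-24884611 (plus) for Rps19 and chr17:28328451-28328490 (plus) for Rpl10a. Of the 80 ribosomal protein genes in the lists 59 matched the RefSeq table, and 28 of those (47.5%) held CTTTC or CTTCC on the gene's strand in this window, against 13.8% of 27018 windows of all genes. The other strand was not searched, and CTTTC and CTTCC can overlap only where the last C of a motif is the first C of the next. A match is a run of letters and not a tested element: Rps19 and Rpl10a hold neither motif in the window.

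Rps15a (ENSMUSG00000008683), a protein of the small subunit, was at 172, 246, 706 and 133 normalised CPM in Cre 1 to 4 and at 71.6, 112.9 and 43.3 in the controls. All Cre libraries lay above all controls, and Cre 3 was the highest library (log2 fold change 2.05, SE 0.64). Fau, whose product is cleaved into a ubiquitin-like protein and the small subunit protein S30, was at 455, 1059, 1446 and 611 with Cre and at 219, 446 and 234 without (1.58, SE 0.52). Rpl7 of the large subunit was at 739, 751, 941 and 548 with Cre and at 287, 399 and 301 without (1.18, SE 0.38). All 4 Cre libraries again lay above the controls, and for Rpl7 Cre 3 was close to the other Cre libraries.

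Other ribosomal genes without overlap included Rps12, Rps27, Rps19 and Rps23, all parts of the small subunit. Rps12 was at 149, 331, 615 and 183 normalised CPM with Cre and at 38.1, 121 and 120 without (log2 fold change 1.78, SE 0.61), but 13.7% of its exon length is shared with another gene on its strand. Rps27 was at 250, 331, 802 and 186 with Cre and at 95.3, 180.3 and 123.6 without (1.56, SE 0.55). Rps19 was at 542, 830, 1163 and 452 against 226, 420 and 304 (1.24, SE 0.46). Rps23 was at 221, 312, 587 and 206 against 82.6, 187.6 and 112.7 (1.38, SE 0.49). In each of them the lowest Cre library was Cre 1 or Cre 4 and stood close above control 2.

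In other ribosomal genes with a large fitted difference the groups overlapped. Rps21, the small subunit gene with the largest log2 fold change (2.33, SE 0.86), was at 169, 691, 2183 and 391 with Cre and at 154, 292 and 64.9 without. Rpl38, that of the large subunit (1.93, SE 0.71), was at 329, 1313, 2158 and 757 with Cre and at 274, 503 and 118 without. Rpl41, which encodes the shortest ribosomal protein, was at 651, 1513, 2827 and 918 with Cre and at 327, 794 and 237 without (1.71, SE 0.65). In these 3 genes Cre 1 lay between the controls.

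The factors that drive translation were also examined. The median over 38 translation factor genes was 0.07 on the log2 scale, equal to that of all genes, and 25 were above 0 (0.18 without control 2). Their summed level was 12397, 13088, 13043 and 11201 normalised CPM with Cre and 10329, 12882 and 11889 without. The 31 proteasome subunit genes had a median of 0.16 (-0.053 to 0.33 with 1 library left out). The 20 genes of heterogeneous nuclear ribonucleoproteins, RNA-binding proteins that package pre-mRNA, had -0.14 (-0.25 to -0.027).

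The length of the RNAs moved with the ribosomal protein result. Genes with under 1 kb of exon took 4.26, 6.94, 9.10 and 5.58% of the counts in Cre 1 to 4 and 4.15, 6.48 and 3.37% in controls 1, 2 and 4. Cre 3, the highest library for ribosomal protein genes, also had the highest share of short genes, and control 4 the lowest. When the tested genes were divided by exon length into 5 classes of equal size, 57.5% of the shortest class had a log2 fold change above 0 (median 0.19), and 49.6% of the longest did (-0.0077). The part of transcript length in the ribosomal protein result was not tested. With Cre 3 and control 4 both left out, 45 of 46 large and 32 of 33 small subunit genes were above 0, with medians of 0.54 and 0.67.

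**Figure D3:**
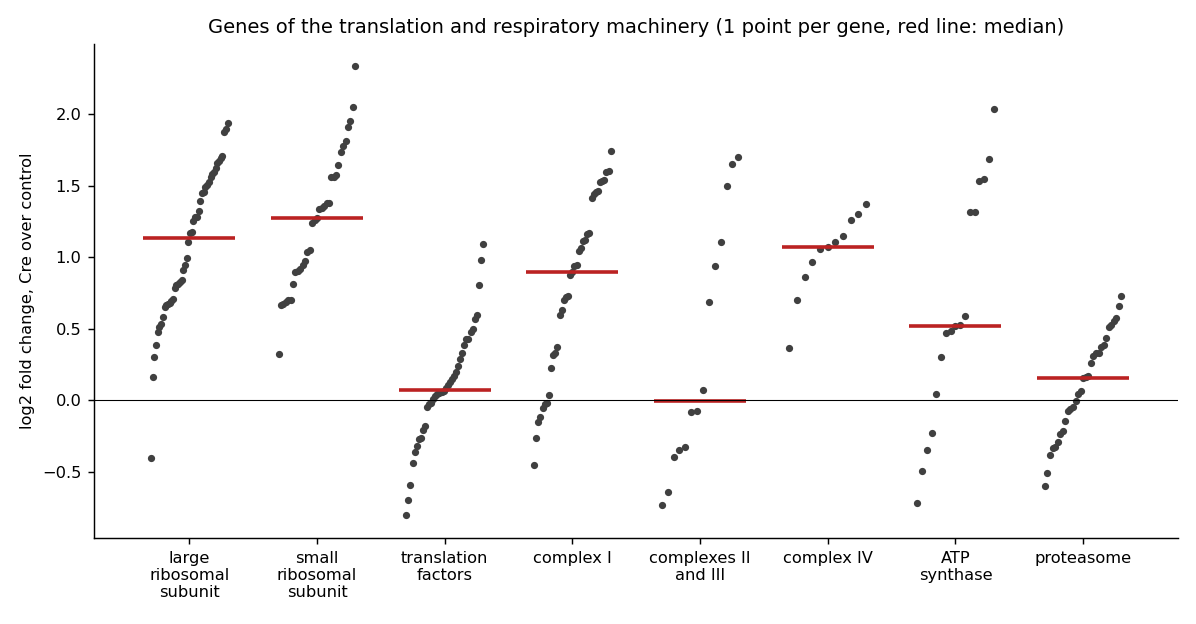
Log2 fold change (Cre over control) of each tested gene of 8 classes, with 1 point per gene and a red line at the median. The 2 ribosomal subunits and complex IV lie almost entirely above 0, and translation factors and proteasome subunits spread around it.

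The nuclear genes of the mitochondrial respiratory chain, which makes ATP from oxygen, divided by complex. Complex I, which takes electrons from NADH, had 30 of 37 genes above 0 with a median log2 fold change of 0.89, and complex IV, which passes them to oxygen, had 11 of 11 with a median of 1.07. ATP synthase had 13 of 17 and a median of 0.52, and complexes II and III had 7 of 14 and a median of 0.00 (-0.33 to 0.40 with 1 library left out). Cre 3 was the highest library in 31 of the 37 complex I genes and control 4 the lowest in 32. With both left out, the medians were 0.15 for complex I, 0.30 for complex IV and -0.03 for ATP synthase, so that these 2 libraries decided most of the difference.

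Single members of the chain are given by complex. Cox6a1, a subunit of complex IV, was at 890, 1635, 3723 and 1207 normalised CPM with Cre and at 931, 1029 and 206 without (log2 fold change 1.37, SE 0.69). Cox4i1, whose mRNA is known in sympathetic axons, was at 1167, 2152, 2635 and 1329 with Cre and at 736, 1461 and 599 without (0.97, SE 0.52), and a gene on the other strand covers 9.94% of its exons. Uqcrq, a small subunit of complex III, was at 564, 1548, 2417 and 821 with Cre and at 441, 585 and 212 without (1.70, SE 0.61). Ndufb8 of complex I was at 459, 519, 919 and 415 with Cre and at 332, 389 and 110 without, with no overlap (1.06, SE 0.51). Atp5b, the catalytic subunit of ATP synthase, was lower with Cre, at 782, 724, 750 and 582 with Cre and at 1147, 1429 and 929 without, also with no overlap (-0.72, SE 0.38). Both genes were chosen after their values were seen. Ndufb8 was the only 1 of 37 complex I genes without overlap, against 3.77% of all genes that were higher without overlap. Of the 17 ATP synthase genes 1 was lower without overlap, against 2.59%, and 1 was higher. In complex IV and in complexes II and III there were 0.

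RNAs made in the mitochondria depended on single libraries. The 8 of 13 protein-coding mitochondrial genes that were counted had a median of -0.12 on the log2 scale, which was 1.07 without control 4 and -0.70 without Cre 3. Their summed level was 5236, 1898, 12485 and 4054 normalised CPM with Cre and 3881, 2967 and 11552 without, highest in Cre 3 and control 4. The other 5 (mt-Co2, mt-Co3, mt-Atp6, mt-Atp8 and mt-Nd4l) are listed at 0 in all 7 libraries and give no value. The 16 glycolytic enzyme genes had a median of -0.38, with 6 above 0, and -0.70 without control 4 but -0.0056 without control 2.

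Skeletal muscle markers had the lowest median of all the lists. Of 35 muscle markers, all tested, 34 had a log2 fold change below 0, with a median of -2.36. The groups did not overlap in 5 of them, all lower with Cre, against 2.59% of all genes, and 15 had an unadjusted edgeR p under 0.05, all lower, against 1.59%. The summed level was 3512, 7667, 2660 and 2056 normalised CPM in Cre 1 to 4 and 8473, 58243 and 2503 in controls 1, 2 and 4. Control 2 was the highest library in 32 of the 35 genes. Control 4, the lowest control, lay between the Cre libraries. Without control 2 the median was -0.40.

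Myh3 and Casq2 were among the 5 markers without overlap. Myh3 (ENSMUSG00000020908, chromosome 11, 67078300 to 67102291), the embryonic myosin heavy chain, was at 67.1, 124.9, 61.5 and 51.4 normalised CPM in Cre 1 to 4 and at 185, 826 and 291 in the controls. All controls lay above all Cre libraries, with a log2 fold change of -2.51 (SE 0.55, edgeR adjusted p 0.9999, DESeq2 adjusted p 0.0190). Casq2 (ENSMUSG00000027861, chromosome 3, 102086415 to 102146514), the calcium store protein of cardiac and slow muscle, was at 19.8, 40.6, 16.1 and 22.8 with Cre and at 80.6, 184 and 98.5 without. Again no Cre library reached a control (-2.28, SE 0.52, DESeq2 adjusted p 0.0345). Without control 2, the highest muscle library, the fitted values were -1.64 for Myh3 and -1.84 for Casq2.

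The other 3 muscle genes without overlap act in the contractile apparatus and its calcium supply. Actn2, alpha-actinin of the Z-disc, was at 26.3, 73.1, 18.04 and 35.3 normalised CPM with Cre and at 136, 683 and 103 without (log2 fold change -3.004, SE 0.72, DESeq2 adjusted p 0.0331). Atp2a1, the calcium pump of fast fibres, was at 46.3, 94.8, 9.58 and 25.7 with Cre and at 177, 1047 and 142 without (-3.36, SE 0.86), and a gene on the other strand covers 21.9% of its exons. Myl3, a slow myosin light chain, was at 0, 6.60, 1.69 and 4.70 with Cre and at 8.74, 11.9 and 38.8 without (-2.59, SE 1.51).

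For Myh3, Casq2 and Atp2a1 the 100 bases before the RefSeq start are shown, and those of Actn2 and Myl3 are not. Capitals mark CAGCTG, a site that muscle regulators of the MyoD family can bind and that reads the same on both strands.
Myh3: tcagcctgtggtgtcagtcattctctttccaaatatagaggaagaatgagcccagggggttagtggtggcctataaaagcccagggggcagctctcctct
Casq2: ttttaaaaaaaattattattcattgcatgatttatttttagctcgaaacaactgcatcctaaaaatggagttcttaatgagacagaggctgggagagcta
Atp2a1: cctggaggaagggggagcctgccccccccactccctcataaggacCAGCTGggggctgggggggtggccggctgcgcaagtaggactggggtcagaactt
They lie at chr11:67078200-67078299 (plus strand), chr3:102086315-102086414 (plus) and chr7:126463074-126463173 (minus) of GRCm38.p6. Of the 35 muscle markers 30 matched the table, and 7 of those (23.3%) held CAGCTG in this window, against 5.68% of all 27018 windows and 0 of the 59 ribosomal protein windows. The absence of these letters before Myh3 and Casq2 concerns this window only.

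In 4 abundant muscle RNAs control 2 was the highest library, and control 4 fell among or below the Cre libraries. Acta1, skeletal actin, was at 796, 1158, 415 and 309 normalised CPM with Cre and at 2088, 11779 and 543 without (log2 fold change -2.84, SE 0.92). Myh8, the perinatal myosin heavy chain, was at 600, 859, 294 and 255 with Cre and at 1495, 7860 and 148 without (-2.66, SE 1.00). The titin gene Ttn was at 393, 831, 584 and 199 with Cre and at 1143, 6019 and 308 without (-2.31, SE 0.87). Troponin C gene Tnnc2 was at 396, 1503, 230 and 350 with Cre and at 666, 9721 and 103 without (-2.50, SE 1.20), but a gene on the other strand covers 74.0% of its exons, and its value was 0.70 without control 2.

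**Figure D4:**
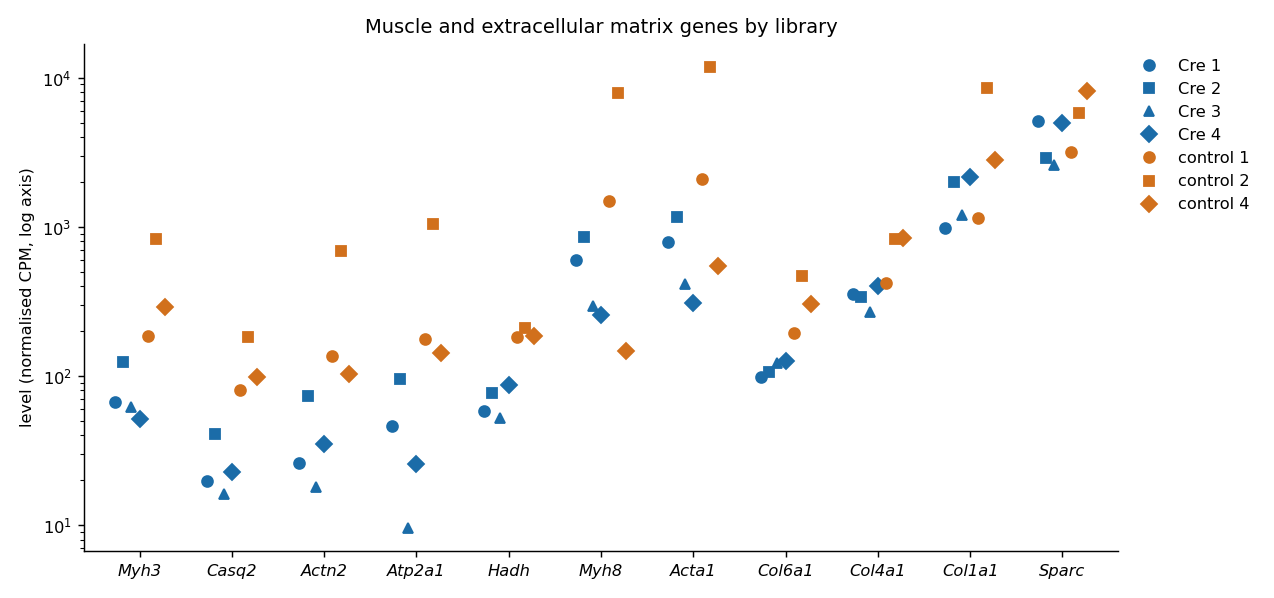
Level (normalised CPM, log axis) of 7 genes expressed in muscle and 4 matrix genes in each library, with Cre libraries in blue and controls in orange. For Myh3, Casq2, Actn2, Atp2a1, Hadh, Col6a1 and Col4a1 all controls lie above all Cre libraries, and control 2 is the highest library in each of the 7 genes expressed in muscle.

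Some genes outside the muscle list that met the rule for naming are also expressed in muscle, but their tissue of origin here was not tested. Hadh (ENSMUSG00000027984), a mitochondrial enzyme of fatty acid oxidation, was at 58.6, 77.1, 52.4 and 86.5 normalised CPM with Cre and at 182, 211 and 186 without. Its levels were more even within each group than those of any muscle marker named here (log2 fold change -1.49, SE 0.36, DESeq2 adjusted p 0.0449). Cacng1, a subunit of the muscle calcium channel, was at 31.6, 17.1, 19.5 and 17.0 with Cre and at 42.9, 217 and 57.1 without (-2.31, SE 0.64). Lpl, the lipoprotein lipase of fat and muscle, was at 25.8, 24.7, 12.1 and 71.2 with Cre and at 113, 105 and 117 without (-1.74, SE 0.59). It was a member of the adipocyte list, whose other tested members Fabp4 (-0.12) and Plin4 (0.84) had overlapping groups.

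Extracellular matrix genes were also lower with Cre, with less dependence on a single library. Of 37 genes tested 34 had a log2 fold change below 0, with a median of -1.27. Leaving out any 1 library gave -1.61 to -0.85. The groups did not overlap in 4 of them, all lower, against 2.59% of all genes, and 22 had an unadjusted edgeR p under 0.05, all lower, against 1.59%. The summed level was 15304, 13554, 11504 and 18912 normalised CPM in Cre 1 to 4 and 14059, 43938 and 35333 in controls 1, 2 and 4. Control 1 was thus within the range of the Cre libraries, as it was in 31 of the 37 genes, and controls 2 and 4 were above it. The 13 tested fibroblast markers, which share Col1a1, Col1a2, Col3a1, Dcn and Lum with the matrix list, had 13 of 13 below 0 and a median of -1.10.

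The matrix genes without overlap were Col6a1, Col4a1, Lama2 and Col5a3. Col6a1 (ENSMUSG00000001119), a chain of collagen VI, was at 99.1, 106, 122 and 126 normalised CPM with Cre and at 193, 465 and 302 without (log2 fold change -1.50, SE 0.38). Col4a1, a collagen of basement membranes, was at 352, 341, 269 and 401 with Cre and at 419, 826 and 838 without (-1.03, SE 0.39). Lama2, the laminin chain around Schwann cells and muscle fibres, was at 141, 125, 129 and 153 with Cre and at 190, 271 and 307 without (-0.90, SE 0.34). Col5a3, a minor fibrillar collagen, was at 38.5, 126, 47.1 and 124 with Cre and at 139, 291 and 360 without (-1.65, SE 0.53). In all 4 genes the gap between control 1 and the highest Cre library was small beside the spread of the controls.

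Fibrillar collagens were the most abundant matrix RNAs per gene after Sparc. Col1a1 was at 989, 1987, 1198 and 2161 normalised CPM with Cre and at 1143, 8509 and 2784 without (log2 fold change -1.39, SE 0.68). Col3a1 was at 1247, 1275, 1223 and 1613 with Cre and at 1388, 5265 and 4208 without (-1.43, SE 0.54). Sparc, a collagen-binding glycoprotein that Schwann cells also make, was at 5144, 2913, 2599 and 4971 with Cre and at 3165, 5791 and 8144 without (-0.54, SE 0.58). Per kilobase of exon, Sparc was at 1031 normalised CPM per kb with Cre, above Col1a1 at 241 and Col3a1 at 136.

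Of the genes in no list, 5 more met the rule for naming with lower levels in Cre libraries. Cdh13, T-cadherin, was at 6.69, 14.6, 4.51 and 22.5 normalised CPM with Cre and at 82.4, 60.2 and 175 without (log2 fold change -3.12, SE 0.69, DESeq2 adjusted p 0.0109). Gpc3, a cell surface proteoglycan, was at 83.7, 79.5, 62.9 and 133 with Cre and at 136, 350 and 353 without (-1.64, SE 0.44). The calpain gene Capn6 was at 81.2, 46.0, 56.1 and 82.1 with Cre and at 97.2, 391 and 251 without (-1.89, SE 0.49). Pdzrn3, a ubiquitin ligase of muscle and vessels, was at 19.6, 26.6, 34.4 and 42.8 with Cre and at 74.9, 106 and 183 without (-1.97, SE 0.49). The unnamed gene model Gm45235 was at 0.231, 0.709, 0 and 0 with Cre and at 8.54, 13.5 and 53.1 without (-6.46, SE 1.70, DESeq2 adjusted p 0.00858).

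Schwann cell genes were abundant in both groups. The 16 markers of myelinating Schwann cells, which wrap the large axons of the nerve, summed to 30993, 12531, 17075 and 15992 normalised CPM with Cre and to 16532, 11271 and 16603 without. Cre 1 was the highest library in 11 of the 16, Cre 3 lay just above the highest control, and Cre 2 and Cre 4 lay among the controls. The median log2 fold change was 0.13, with 10 above 0, and -0.25 without Cre 1. Mbp, the basic protein of the myelin sheath, was at 8454, 3297, 3117 and 3490 with Cre and at 4848, 2669 and 3601 without (log2 fold change 0.31, SE 0.59, and -0.17 without Cre 1). Non-myelinating and general glial markers had a median of -0.25 over 13 genes, which was 0.29 without control 4. Of the 13, 4 were above 0 and 9 below. The groups did not overlap in 1 of them, which was higher with Cre, against 3.77% of all genes. That gene was S100b, a calcium-binding protein of Schwann cells, at 408, 531, 551 and 310 with Cre and at 237, 241 and 130 without (1.15, SE 0.40). Sox10, Matn2 and Erbb3, the other members with the highest level per kilobase, were below 0 with overlapping groups.

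Blood and immune cell markers differed in direction. Over 14 tested macrophage and immune markers the median was -1.10 on the log2 scale, with 3 above 0 and 11 below, and it was 0.22 without control 2 and -0.15 without control 4. Cx3cr1, a chemokine receptor of macrophages, was at 0.922, 10.001, 3.38 and 10.6 normalised CPM with Cre and at 13.1, 54.2 and 18.2 without (-2.19, SE 1.14), and Mrc1, their mannose receptor, was at 0, 9.58, 7.33 and 16.1 with Cre and at 16.9, 86.8 and 17.0 without (-2.28, SE 1.32). Both were without overlap, the only 2 of the 14 on that side, against 2.59% of all genes. Cpa3, the carboxypeptidase of mast cell granules, was the reverse, at 15.9, 5.39, 8.46 and 8.73 with Cre and with 0 counts in each control. Its mean with Cre was 17.4-fold the mean floor of 3 counts per control library (DESeq2 adjusted p 0.00917, edgeR adjusted p 0.9999). It passed the low-count filter through the Cre libraries alone, so that its lack of overlap adds no support to that call. The 2 other members above 0 overlapped. C1qa, a chain of complement C1q made by macrophages, was at 14.3, 24.9, 23.4 and 52.5 normalised CPM with Cre and at 7.91, 34.8 and 2.94 without (0.92, SE 1.01). Fcer1g, the gamma chain of Fc receptors, was at 12.9, 14.1, 79.2 and 18.8 with Cre and at 0.208, 28.8 and 24.6 without (0.80, SE 1.26, and -0.23 without Cre 3). The beta-globin gene Hbb-bs, of red blood cells, was at 183, 140, 216 and 151 with Cre and at 45.4, 189 and 87.0 without (log2 fold change 0.68, SE 0.49). Endothelial markers had a median of 0.17 over 12 genes (-0.058 to 0.32 with 1 library left out).

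Genes that were higher with Cre by the rule for naming came from no single list. Odf2l (ENSMUSG00000028256, chromosome 3, 145118588 to 145153915), a protein of the centriole, was at 33.0, 7.02, 16.4 and 19.98 normalised CPM with Cre, from 143, 99, 58 and 119 counts, and had 0 counts in the controls. Its mean over the Cre libraries was 34.6-fold the mean control floor (DESeq2 adjusted p 0.000188). The transcription factor gene Tead2 was at 52.1, 42.3, 117 and 49.5 with Cre and at 7.70, 8.02 and 2.25 without (log2 fold change 3.44, SE 0.77, DESeq2 adjusted p 0.00421). Tead2 was the most abundant of the 21 genes that DESeq2 called higher, at 65.2 ± 34.6 (SD, n = 4), and the other 20 had means of at most 27.4.

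The rule for naming gave 4 further genes that were detected in every control. Prkar2b, a regulatory subunit of protein kinase A that is abundant in neurons, was at 141, 444, 1284 and 200 normalised CPM with Cre and at 132, 90.4 and 42.9 without (log2 fold change 2.55, SE 0.79). Shoc2, a scaffold of the Ras pathway, was at 133, 244, 291 and 101 with Cre and at 91.0, 44.3 and 17.3 without (1.92, SE 0.62, with 1.74% of its exons opposite another gene). Tmem135, a membrane protein linked to peroxisomes and mitochondria, was at 94.8, 24.7, 71.9 and 37.8 with Cre and at 6.87, 9.21 and 13.0 without (2.56, SE 0.73). Trp53inp2, which acts in autophagy, and whose mRNA is known for its abundance in sympathetic axons, was at 175, 228, 390 and 120 with Cre and at 92.8, 63.8 and 93.3 without (1.45, SE 0.46). In all 4 genes every Cre library lay above every control.

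The 3 other named genes were of low level or uncertain. Lrif1, which binds nuclear receptors, was at 51.2, 22.5, 21.7 and 14.3 normalised CPM with Cre and at 1.87, 0.682 and 0 without (log2 fold change 4.99, SE 1.51, DESeq2 adjusted p 0.00874), and 11.6% of its exon length is shared with another gene. Rpia, an enzyme of the pentose phosphate pathway, was at 8.07, 13.3, 45.1 and 3.36 with Cre, with at most 3 counts in each control. Its mean with Cre of 17.5 (SD 18.9, n = 4) was 31.7-fold the mean control floor (DESeq2 adjusted p 0.0128). Cre 3 gave most of that mean, and the fold does not hold for each Cre library. Gm13066 was at 92.9, 95.5, 67.4 and 66.0 with Cre and at 37.3, 25.8 and 17.998 without (1.57, SE 0.50), but a gene on the other strand covers 81.5% of its exons. All 21 genes that DESeq2 called higher were without overlap. None of the controls held more than 3 counts for 18 of them, and 13 had 0 throughout. These 18 passed the low-count filter through their Cre libraries alone. Their lack of overlap follows from the low control counts and adds no support to the calls. In edgeR the smallest adjusted p of any gene was 0.9999. Those called higher and not described so far include Hmgcll1, Psen2, Dusp14, 4930447C04Rik, Cd96, Suv39h2, Pik3cb, Znrd1as, Zbtb33, Zbtb26, Bbs12, Spdl1, Lrrc73, Ifit3 and Rnf113a2.

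**Figure D5:**
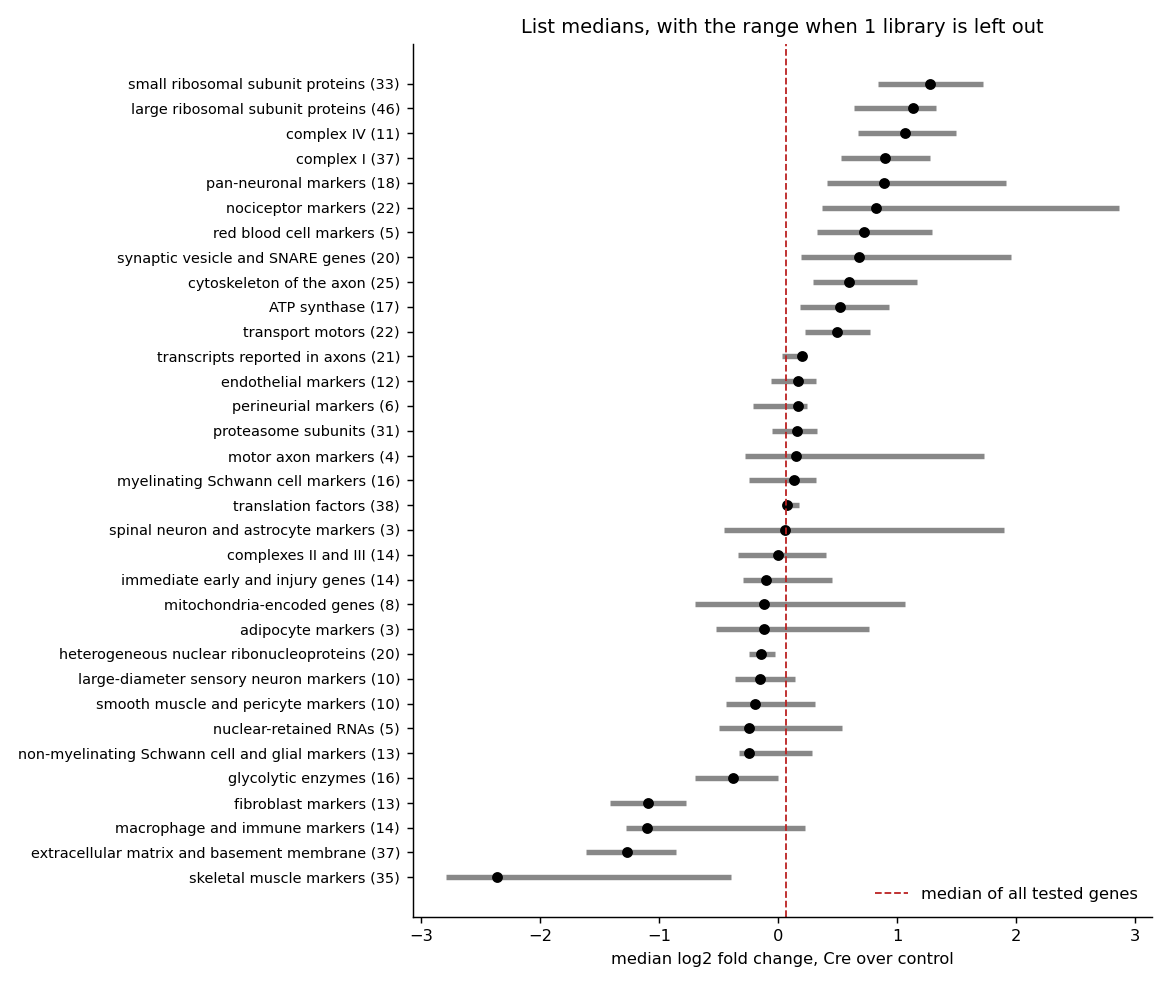
Median log2 fold change (Cre over control) of 33 gene lists (black points, with the number of tested genes in parentheses), the range of that median when each of the 7 libraries is left out in turn (grey bars) and the median of all tested genes (dashed line). The ranges of both ribosomal subunits, complexes I and IV and the nociceptor and pan-neuronal lists lie above 0 and those of matrix, fibroblast and skeletal muscle lists lie below it, with the widest bars for the nociceptor and muscle lists.

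The Cre-against-control difference of the nerve was then compared with that of the somas of batch 2, taken from dorsal root ganglia (4 libraries of each genotype), by an interaction term in a fit of all 15 libraries. Of 15717 genes 1 was called by edgeR (0.00636%). No list member was called. Without control 1 the fit called 66 genes, 65 of them with the larger value in the nerve, and without control 2 it called 2.

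Side by side, muscle and matrix lists were below 0 in both tissues. Muscle markers had a median of -2.01 in the ganglia, where Myh3 was at -3.16 and Casq2 at -2.01, and of -2.36 in the nerve. Matrix genes were at -2.60 in the ganglia and -1.27 in the nerve, and fibroblast markers at -2.61 and -1.10. Ribosomal protein genes were near 0 in the ganglia, with medians of 0.03 for the large and -0.04 for the small subunit, and nociceptor markers at 0.53. Myelinating Schwann cell markers were at -1.59 in the ganglia and 0.13 in the nerve. As no member of these lists passed the interaction test, none of these differences between tissues is shown.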

How the data were processed

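The authors deposited raw read counts per gene for batch 2 as 1 table with 55536 gene identifiers, in which each library is a column, per the file headers. The table of batch 1 was not used here. The submitters' processing notes name STAR 2.7.2b and mm10. The counting program, its use of strand and its treatment of reads that fit several genes are not given in the sources used here, so that genes with overlapping exons are uncertain. Libraries were made with a SMART-Seq v4 kit from very small amounts of RNA, per the labels' protocols. They carry no molecular identifiers, and intervals and floors cover counting error only. Identifiers were matched to GENCODE M21 (GRCm38), and a symbol with 2 identifiers was kept for the one with more exon sequence.

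Counts of the 7 libraries were fitted with edgeR 4.0.16 in R 4.3.3 (filterByExpr with a minimum count of 10 and a minimum total of 15, TMM, glmQLFit, glmQLFTest, Benjamini-Hochberg adjustment, threshold 0.05). The SE was taken from the log2 fold change and the root of its F statistic. DESeq2 1.42.0 and voom of limma 3.58.1 were alternatives, as were other scalings, filters, a replicate block, a fit of all 15 libraries of the batch and leaving out each library. A fold against controls with at most 3 counts divides the mean of the Cre libraries by the mean floor of 3 counts per control library. It is a lower bound on the side of the controls only, and single Cre libraries can lie below it. Named genes were Scn10a, Rpl10a, Myh3 and Casq2, up to 12 genes per direction with the smallest p among those with a log2 fold change of at least 1, no overlap and a mean of at least 10 normalised CPM, the nociceptor and skeletal muscle lists, from each other list the 4 members with the highest level per kilobase, and genes called by DESeq2. Atp5b, Col4a1, Col5a3, Cx3cr1, Fau, Lama2, Mrc1, Ndufb8, Rps12, Rps19, Rps23, Rps27, Stmn2 and Tubb3 fall outside this rule and were chosen after their values were seen. The comparison and the gene lists were chosen with earlier results of these data known. Results of some genes are not reported here. The code was tested on simulated data.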

Additional observations from a re-analysis of the deposited data

Results flagged for a closer look

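Among the 4 Cre libraries, 109 values (list sums, named genes and library measures) were examined for a library far from the other 3, and 7 had such a library. Chance flags about 1 in 20 such groups, and the 3 controls were too few for this rule. Cre 2 had 15.06 M counts, against 4.10 M to 5.77 M in the other Cre libraries. Cre 2 also held 1503 normalised CPM of Tnnc2, against 230 to 396. Cre 1 held 31.6 normalised CPM of Cacng1 against 17.0 to 19.5, and 8454 of Mbp against 3117 to 3490. Cre 3 held 117 normalised CPM of Tead2 against 42.3 to 52.1, and 79.2 of Fcer1g against 12.9 to 18.8. Cre 4 held 1613 normalised CPM of Col3a1 against 1223 to 1275.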

How the results depend on the processing

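The count of 0 called genes remained 0 under library size scaling, RLE scaling, both other filters, voom, the replicate block and each fit without 1 library, and with Cre 3 and control 4 both left out, an alternative chosen after seeing the data. It was 27 with DESeq2 and 1 with all 4 groups of batch 2 in 1 fit. At an unadjusted p under 0.05 there were 514 genes in the edgeR fit, 810 with DESeq2 and 1063 with voom. Replicate numbers are shared by 3 pairs of libraries, whose deviations from their group means correlated at -0.118, 0.127 and -0.0146. With so few libraries per mean, these values cannot decide whether the numbers mark pairs, and the labels do not say. The replicate block left 129 genes at an unadjusted p under 0.05. For the difference from the soma contrast, voom called 2 genes, and leaving out 1 library gave 1 to 66. The 66 came without control 1: 65 were larger in the nerve, and 54 had at most 3 counts in each of the other controls. The difference in detected genes stayed positive under every count minimum, under thinning to equal depth and without any 1 library.

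Of 272 list medians under other scalings, filters, tests and fits, 264 moved by less than the spread between replicates, and of 238 with 1 library left out, 229 did. That spread is wide: 20 of the 272 changed sign and 52 more moved by over 1.5 times, as did 36 and 86 of the 238. The nociceptor median of 0.82 was 3.00 with voom and 2.23 with the replicate block, and the pan-neuronal median of 0.89 was 1.40 and 1.36. Among the 71 genes given with a fold change, 10 of 1065 refits changed sign. Gfra3 was at 4.05 with voom and 4.42 with the replicate block, and P2rx3 at 4.29 and 6.13. Without 1 library at a time, Gfra3 ranged from -0.72 to 5.84, P2rx3 from -0.88 to 9.17, Tnnc2 from -3.43 to 0.70, Mbp from -0.17 to 0.55 and Fcer1g from -0.23 to 1.33. The causes were not tested.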
